A study of Drosophila melanogaster with 9 samples.

Results

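The OGA mutant was compared directly with the SXC mutant in Drosophila melanogaster, on 3 Affymetrix Drosophila_2 arrays of the OGA mutant and 3 of the SXC mutant, which are 6 of the 9 arrays of the study. The other 3 arrays are of wild type and serve here as a level against which each mutant can be read. Each group is known by its genotype alone: the labels give no allele, sex, age, stage, tissue or diet, and are silent on whether replicates are separate flies. All p-values therefore measure the spread between these arrays, which may be technical. The members of the comparison were all 18769 probe sets other than the manufacturer's controls, of 18952 on the array, and 11982 genes could be represented by 1 probe set each. The comparison asks which transcripts differ between a mutant of the enzyme that removes a sugar from proteins and a mutant of the enzyme that attaches it.

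O-GlcNAc is a single N-acetylglucosamine attached to serines and threonines of nuclear and cytoplasmic proteins. In the fly it is attached by O-GlcNAc transferase, encoded by super sex combs (sxc), which is also known as a gene of the Polycomb group of transcriptional repressors, and it is removed by O-GlcNAcase, encoded by Oga. The donor sugar, UDP-GlcNAc, is made by the hexosamine pathway from fructose phosphate, glutamine, acetyl-CoA and UTP, so the modification is known as one that follows nutrient supply.

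Each mutant had less transcript of the gene it is named for, and these were among the clearest differences of the comparison. On the log2 scale of the arrays, Oga (chromosome 3R) had levels of 8.88, 8.90 and 8.75 in the OGA mutant, against 9.82, 9.81 and 9.99 in the SXC mutant. All 3 OGA mutant arrays lay below all 3 SXC mutant arrays, and the wild-type mean was 9.90. The difference, OGA mutant minus SXC mutant, was −1.03 with SE 0.10, or 2.04-fold lower in the OGA mutant (limma adjusted p = 0.000711). sxc (chromosome 2R) had levels of 11.86, 11.91 and 11.90 in the OGA mutant, against 10.36, 10.32 and 10.36 in the SXC mutant. The groups were again far apart, with a wild-type mean of 11.84, near the OGA mutant. The difference in sxc was 1.54 with SE 0.06, or 2.92-fold higher in the OGA mutant (adjusted p = 3.13e-07). Whether the probes fall within the altered part of either gene is unknown here.

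Across the array, 1482 probe sets differed at an adjusted p under 0.05 (7.90% of those tested), of which 962 were higher in the OGA mutant (5.13%) and 520 lower (2.77%). Counted as genes, 1219 of 11982 were called (10.2%), 805 higher (6.72%) and 414 lower (3.46%). Calls depended on level. Of 7251 genes above the median level over all probe sets, 791 were higher and 371 lower, against 14 and 43 of the other 4731. After quantile normalization of the arrays, 731 probe sets were higher and 651 lower, so the share of called probe sets that were higher was 52.9%, against 64.9% as deposited. Most differences were small. The median size over called genes was 0.42 on the log2 scale, 132 genes were at least 1.5-fold higher and 141 at least 1.5-fold lower, and 21 and 33 reached 2-fold. The arrays of the mutants did not overlap for 26.2% of probe sets and 30.2% of genes. Leaving out 1 array moved the count of called probe sets by over 1.5 times in 4 cases: 586 remained in the fit without SXC mutant replicate 1, 731 without its replicate 2, 779 without OGA mutant replicate 3 and 945 without replicate 2 of that mutant.

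**Figure D1:**
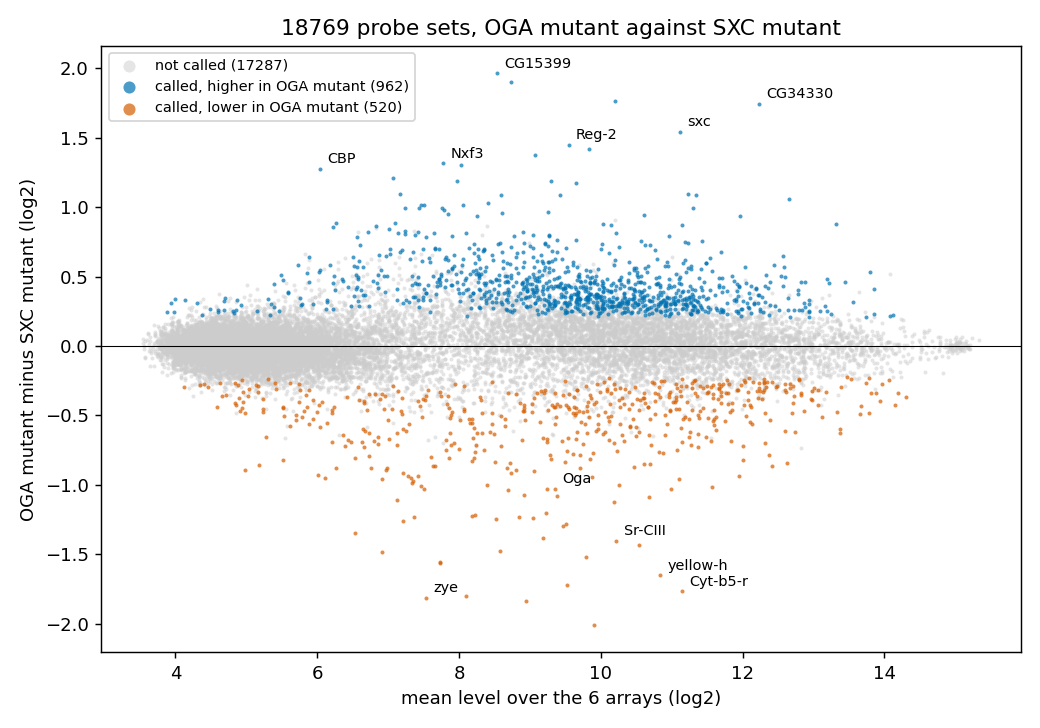
Difference in log2 level, OGA mutant minus SXC mutant, against the mean log2 level over the 6 mutant arrays, with 1 point for each of 18769 probe sets. The 962 probe sets called higher in the OGA mutant (blue) and the 520 called lower (orange) lie mostly within 1 log2 unit of 0, and sxc and Oga stand on opposite sides.

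SXC mutant replicate 1 and OGA mutant replicate 3 stood apart from the other arrays of their groups. On the first principal component of the 6 arrays, which held 56.4% of the variance, the OGA mutant arrays lay between 9.16 and 21.3 and the SXC mutant arrays between −23.0 and −6.96, with those 2 arrays at the ends. Correlations across probe sets, which are not independent replicates, were 0.997 to 0.999 within a group and 0.993 to 0.998 between the mutants. Array medians ran from 5.97 to 6.05. A control pair for GAPDH, which sets the 3′ end of the transcript against the 5′ end as a sign of RNA quality, read 2.11 ± 0.12 in the OGA mutant and 2.94 ± 0.31 in the SXC mutant (log2, SD, n = 3 each; exact two-sided permutation p = 0.1, the smallest that 3 against 3 arrays can give). A second GAPDH pair also separated the groups, at 0.996 ± 0.03 and 1.15 ± 0.08 (exact permutation p = 0.1), whereas the pairs for actin, eIF-4a and 18S rRNA overlapped. Called genes that were higher in the OGA mutant had a median length of 1915 bases, those that were lower 4063 bases, and all genes with a length 2263 bases. The part of RNA quality in the differences was not tested.

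Among probe sets listed with a single gene, the largest rises and falls were of genes with varied and partly unknown roles. CG15399 (2L) had levels of 9.73, 9.29 and 9.52 in the OGA mutant, against 6.94, 7.70 and 8.01 in the SXC mutant, a difference of 1.96 with SE 0.22 or 3.90-fold (adjusted p = 0.00104). CG11825 (2R) followed at 1.90 with SE 0.23 (adjusted p = 0.00137), and CG34330 (X), one of the brightest at a mean of 13.10 in the OGA mutant and 11.36 in the SXC mutant, at 1.74 with SE 0.27. For each of these, the wild-type mean lay within 0.1 of the OGA mutant mean. Among rises of genes with a known role were Had2, of the hydroxyacyl-CoA dehydrogenase family (1.42 with SE 0.14, adjusted p = 0.000711), yin, an oligopeptide transporter (1.37 with SE 0.12, adjusted p = 0.000344) and Ids, the lysosomal iduronate sulfatase that degrades glycosaminoglycans (1.31 with SE 0.14, adjusted p = 0.000761). The others were Reg-2, named for its rhythmic expression (1.45), the calcium-binding protein gene CBP (1.28), CG10232 (1.21) and CG16888 (1.19).

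Nxf3, whose protein exports precursors of piRNAs from the nucleus, was also among the 12 largest rises, at 1.31 with SE 0.36 (adjusted p = 0.0471). Its levels were 7.98, 7.77 and 9.55 in the OGA mutant, against 6.93, 7.02 and 7.40 in the SXC mutant. OGA mutant replicate 3 alone was far above the other 5 arrays. The difference was 0.755 with SE 0.14 without that array (adjusted p = 0.019), and the call ended without SXC mutant replicate 1 (adjusted p = 0.161), replicate 2 (0.131) or replicate 3 (0.0571). A second, dimmer probe set of Nxf3 had a difference of 0.55 with SE 0.19 and was not called (adjusted p = 0.108).

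Among the falls, zye (3L) had levels of 6.56, 7.09 and 6.24 in the OGA mutant, against 8.63, 8.18 and 8.51 in the SXC mutant, a difference of −1.81 with SE 0.18 (adjusted p = 0.000711). Cyt-b5-r (2L), which encodes a cytochrome b5-related protein, had levels of 9.85, 10.48 and 10.46, against 12.75, 11.67 and 11.68, a difference of −1.77 with SE 0.26 (adjusted p = 0.00355). The SXC mutant arrays were above all OGA mutant arrays for both genes, and SXC mutant replicate 1 was the highest array for both. Other falls were of CG13031 (−1.80), bero, which encodes a membrane-anchored protein of the Ly6 family (−1.72), and yellow-h (chromosome 4), of the Yellow family (−1.65 with SE 0.15, adjusted p = 0.000585). Sr-CIII, a class C scavenger receptor gene, fell by 1.40 on the log2 scale (SE 0.16, adjusted p = 0.00104), and CG12910, CG5246, CG12991, CG2233 and CG9837 differed by −1.57 to −1.43. CG43336 (−1.38, adjusted p = 0.0149) lost its call without SXC mutant replicate 1 (adjusted p = 0.0691) or replicate 2 (0.0528).

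**Figure D2:**
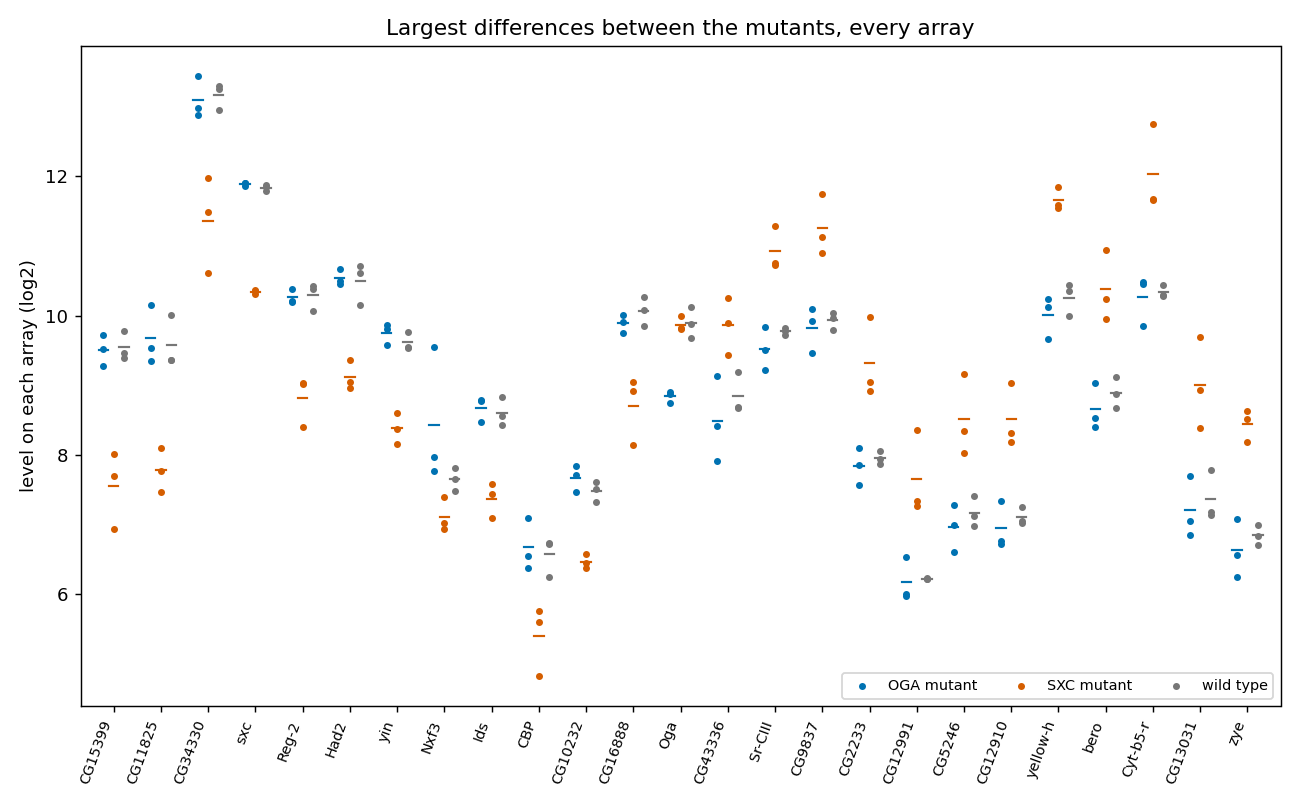
Log2 level on every array (points) and group mean (bars) for Oga, sxc and the genes with the 12 largest rises and 12 largest falls, ordered by the difference between the mutants. For most genes the wild-type arrays lie beside the OGA mutant arrays, and for Oga beside the SXC mutant arrays.

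Wild type was closer to the OGA mutant than to the SXC mutant for nearly all called genes. Its mean was nearer the OGA mutant mean in 1170 of 1219 called genes (769 of the 805 higher and 401 of the 414 lower), against 7948 of all 11982 genes. On a scale where 0 is the SXC mutant mean and 1 the OGA mutant mean, the median wild-type position was 0.958 over called genes and 0.832 over all genes. Of the called genes with at least a 1.5-fold difference, 7 of 273 had wild type nearer the SXC mutant: Oga, CG11686, wech, CG32369, Hecw, Msp300 and Nxf3. For wech, Hecw, CG32369, Msp300 and Nxf3, OGA mutant replicate 3 was the highest of the 9 arrays. These 7 genes other than Oga and Nxf3 were chosen after their values were seen.

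Of the measured genes of DNA replication, those called were all higher in the OGA mutant. In the list for the MCM helicase, Cdc45 and GINS, which together unwind DNA at the replication fork, 5 of 10 measured genes rose and 0 fell. Of all genes, 6.72% were called higher. All 10 had a positive difference, with a median of 0.36 against 0.01 over all genes. Mcm6 (X), a subunit of the helicase ring, had levels of 11.70, 11.64 and 11.99 in the OGA mutant, against 10.53, 10.75 and 10.77 in the SXC mutant, a difference of 1.09 with SE 0.11 (adjusted p = 0.000673). Cdc45 (X) rose by 0.42 with SE 0.07 (adjusted p = 0.00705) and Psf2, a GINS subunit, by 0.33 with SE 0.07 (adjusted p = 0.0132). The mean level over the 10 genes was 10.39 to 10.60 on the OGA mutant arrays and 10.02 to 10.16 on the SXC mutant arrays, which did not overlap, and 10.40 to 10.56 on the wild-type arrays. In these bulk arrays, fewer cells of a type and less RNA per cell cannot be told apart. The 5 rises were 6, 5 and 4 with OGA mutant replicates 1, 2 and 3 left out in turn, and 3, 3 and 7 for the SXC mutant. With SXC mutant replicate 1 and OGA mutant replicate 3 both left out, 1 was called and the median was 0.27.

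In the list of origin licensing and fork genes 8 of 20 measured genes rose (40%, against 6.72% of all genes), 0 fell, and all 20 differences were positive, with a median of 0.30. Orc1 (2R), a subunit of the origin recognition complex, had levels of 9.37, 9.30 and 9.48 in the OGA mutant, against 8.91, 8.92 and 9.10 in the SXC mutant, a difference of 0.41 with SE 0.08 (adjusted p = 0.0105). PCNA, the sliding clamp of the polymerases, rose by 0.49 with SE 0.10 (adjusted p = 0.0136), a call that ended without SXC mutant replicate 1 (adjusted p = 0.0544). The count depended on single arrays. Leaving out SXC mutant replicates 1, 2 and 3 in turn gave 1, 2 and 11 rises, and leaving out OGA mutant replicates 2 and 3 in turn gave 3 and 2. With SXC mutant replicate 1 and OGA mutant replicate 3 both left out, 0 were called, the median was 0.17 and all 20 differences were still positive.

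Genes of the cell cycle engine and of mitosis had calls in the same direction. Of 13 measured genes for cyclins, cyclin-dependent kinases and Cdc25, 4 rose, or 30.8%, against 6.72% of all genes called higher, and 0 fell (median 0.27). Cdk2 (3R), the kinase that drives entry into S phase, had levels of 9.73, 9.67 and 9.88 in the OGA mutant, against 8.76, 8.97 and 9.27 in the SXC mutant, a difference of 0.76 with SE 0.14 (adjusted p = 0.00847). CycB3, a mitotic cyclin, rose by 0.61 with SE 0.12 (adjusted p = 0.0129), and the call ended without SXC mutant replicate 1 (adjusted p = 0.0504). Of 19 genes for mitotic kinases and the spindle, 7 rose and 0 fell (median 0.29), among them aurB, the Aurora B kinase (0.56 with SE 0.11, adjusted p = 0.0137). The 4 rises among cyclins were 2 with any OGA mutant array left out, and 1, 2 and 4 with SXC mutant replicates 1, 2 and 3 left out in turn. The 7 mitotic rises were 3, 4 and 3 with OGA mutant replicates 1, 2 and 3 left out in turn, and 2, 1 and 8 for the SXC mutant. With SXC mutant replicate 1 and OGA mutant replicate 3 both left out, limma called 0 genes in either list, with medians of 0.16 for the cyclin list and 0.23 for the mitotic list. After quantile normalization 2 genes of the cyclin list were called higher and 0 lower, and 6 of the mitotic list higher and 1 lower. With no moderation of the variances 0 genes were called in either list or in the origin licensing list. In the list for the MCM helicase, Cdc45 and GINS 3 were then called higher.

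**Figure D3:**
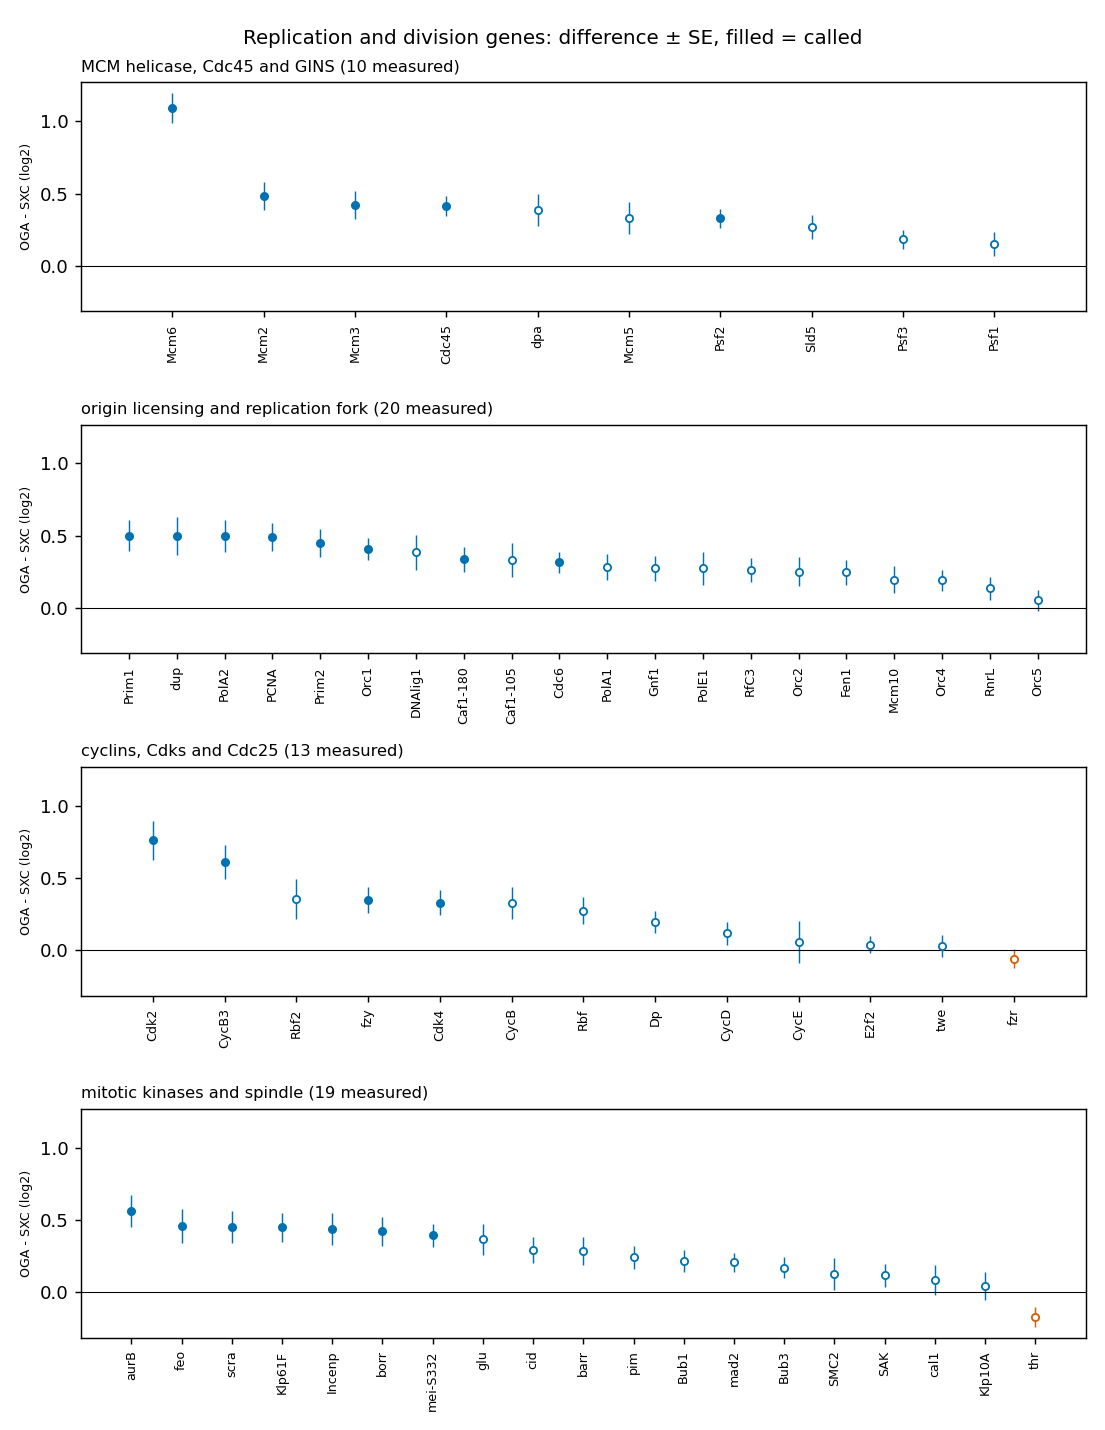
Log2 difference, OGA mutant minus SXC mutant, with its SE for each measured gene of the 4 lists of replication and division genes; filled points are called. All but fzr and thr lie above 0, and Mcm6, at 1.09, is farthest from it.

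Some mitochondrial ribosomal protein genes, which serve translation inside mitochondria, rose by small amounts. Of 69 measured genes 8 rose and 0 fell, with a median of 0.11 and 57 positive differences. Of all genes 6.72% were called higher. All 69 were above the median level over probe sets, where 791 of 7251 genes were called higher, a share close to that of the 69. mRpL9 had levels of 10.52, 10.66 and 10.68 in the OGA mutant, against 10.06, 10.22 and 10.14 in the SXC mutant, a difference of 0.48 with SE 0.07 (adjusted p = 0.00347), and mRpS24 rose by 0.37 with SE 0.06 (adjusted p = 0.00667). Leaving out OGA mutant replicates 1, 2 and 3 in turn gave 14, 4 and 3 rises, and SXC mutant replicates 1, 2 and 3 in turn 5, 3 and 4. With SXC mutant replicate 1 and OGA mutant replicate 3 both left out, 1 was called and the median was 0.10. Of 76 genes of the respiratory chain, 4 rose (5.26%, below the 6.72% of all genes) and 0 fell, and 1 rose without OGA mutant replicate 2, OGA mutant replicate 3 or SXC mutant replicate 1. Of 41 cytosolic ribosomal protein genes limma called 0, with 3 at an unadjusted p under 0.05. Many of these were very bright, such as RpS7, with means of 15.12 in the OGA mutant and 15.11 in the SXC mutant. Whether the arrays compress differences at such levels was not tested. Of 40 proteasome genes limma called 0, with 14 at an unadjusted p under 0.05 and 33 positive differences (median 0.12); Prosalpha3, a subunit of the core particle, had the smallest p, with 0.24 and SE 0.07 (adjusted p = 0.0585), and 9 were called with an intensity trend and robust prior.

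With all 9 arrays fitted, more of the called genes in the detoxification families were lower than higher in the OGA mutant. UDP-glycosyltransferases, which add sugars to small molecules to make them easier to excrete, had 9 falls and 0 rises among 35 measured genes, against 3.46% of all genes called lower, with a median of −0.14. Ugt49B1 (2R) had levels of 7.27, 7.50 and 7.61 in the OGA mutant, against 8.54, 8.18 and 8.09 in the SXC mutant, a difference of −0.81 with SE 0.12 (adjusted p = 0.00416). Ugt49C1 (2R) also fell by 0.81 on the log2 scale, with SE 0.12, and Ugt302E1 (3R) by 0.72 with SE 0.12. The mean level of the family was 6.79 to 6.85 on the OGA mutant arrays, against 6.96 to 7.09 on the SXC mutant arrays and 6.79 to 6.85 in wild type. The 9 falls were 6, 7 and 6 with OGA mutant replicates 1, 2 and 3 left out in turn, and 5, 6 and 8 for the SXC mutant.

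Glutathione transferases, which conjugate glutathione to reactive compounds, moved both ways: of 34 measured genes 8 fell (23.5%, against 3.46% of all genes) and 4 rose (11.8%, against 6.72%). GstE2 (2R) had levels of 12.31, 12.47 and 12.52 in the OGA mutant, against 13.06, 13.02 and 13.08 in the SXC mutant, a difference of −0.62 with SE 0.07 (adjusted p = 0.000761), and GstE5 and GstS1 differed by −0.88 and −0.72. GstT3 (X) moved the other way, at 10.50, 10.65 and 10.59 in the OGA mutant, against 9.77, 9.72 and 9.63 in the SXC mutant, a difference of 0.87 with SE 0.08 (adjusted p = 0.000651). The 8 falls were 4, 6 and 5 with OGA mutant replicates 1, 2 and 3 left out in turn, and 3, 3 and 8 for the SXC mutant. The rises were 4 in each of these fits. Falls therefore did not outnumber rises without replicate 1 of either mutant or SXC mutant replicate 2. With SXC mutant replicate 1 and OGA mutant replicate 3 both left out, 3 fell and 3 rose. With no moderation of the variances, 1 fell and 4 rose. Of 83 genes in the list for cytochromes P450, a family of oxidases, 7 fell (8.43%, against 3.46% of all genes) and 4 rose (4.82%, against 6.72%). That list also holds Cyp1 and Cyp40, which encode cyclophilins rather than cytochromes P450, and neither was called. The falls were 5 to 7 and the rises 1 to 3 with 1 array left out, the rises being 1 without OGA mutant replicate 3 or SXC mutant replicate 1, and 2 without OGA mutant replicate 1 or replicate 2 of either mutant. Cyp6a13 (2R) was at 12.01, 12.05 and 11.89 in the OGA mutant, against 12.76, 12.78 and 12.76 in the SXC mutant, a difference of −0.78 with SE 0.06 (adjusted p = 0.000301), whereas Cyp4p3 rose by 0.82 with SE 0.10 (adjusted p = 0.00121). In the list of oxidative and metal stress genes 2 of 16 measured rose (against 6.72% of all genes) and 1 fell (against 3.46%). Gclc, the catalytic subunit of the enzyme that starts glutathione synthesis, fell by 0.65 on the log2 scale (SE 0.08, adjusted p = 0.00179). MtnA, a metallothionein, rose by 0.93 with SE 0.10 (adjusted p = 0.000816) and Prx6c, a peroxiredoxin, by 1.09 with SE 0.19 (adjusted p = 0.00847).

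**Figure D4:**
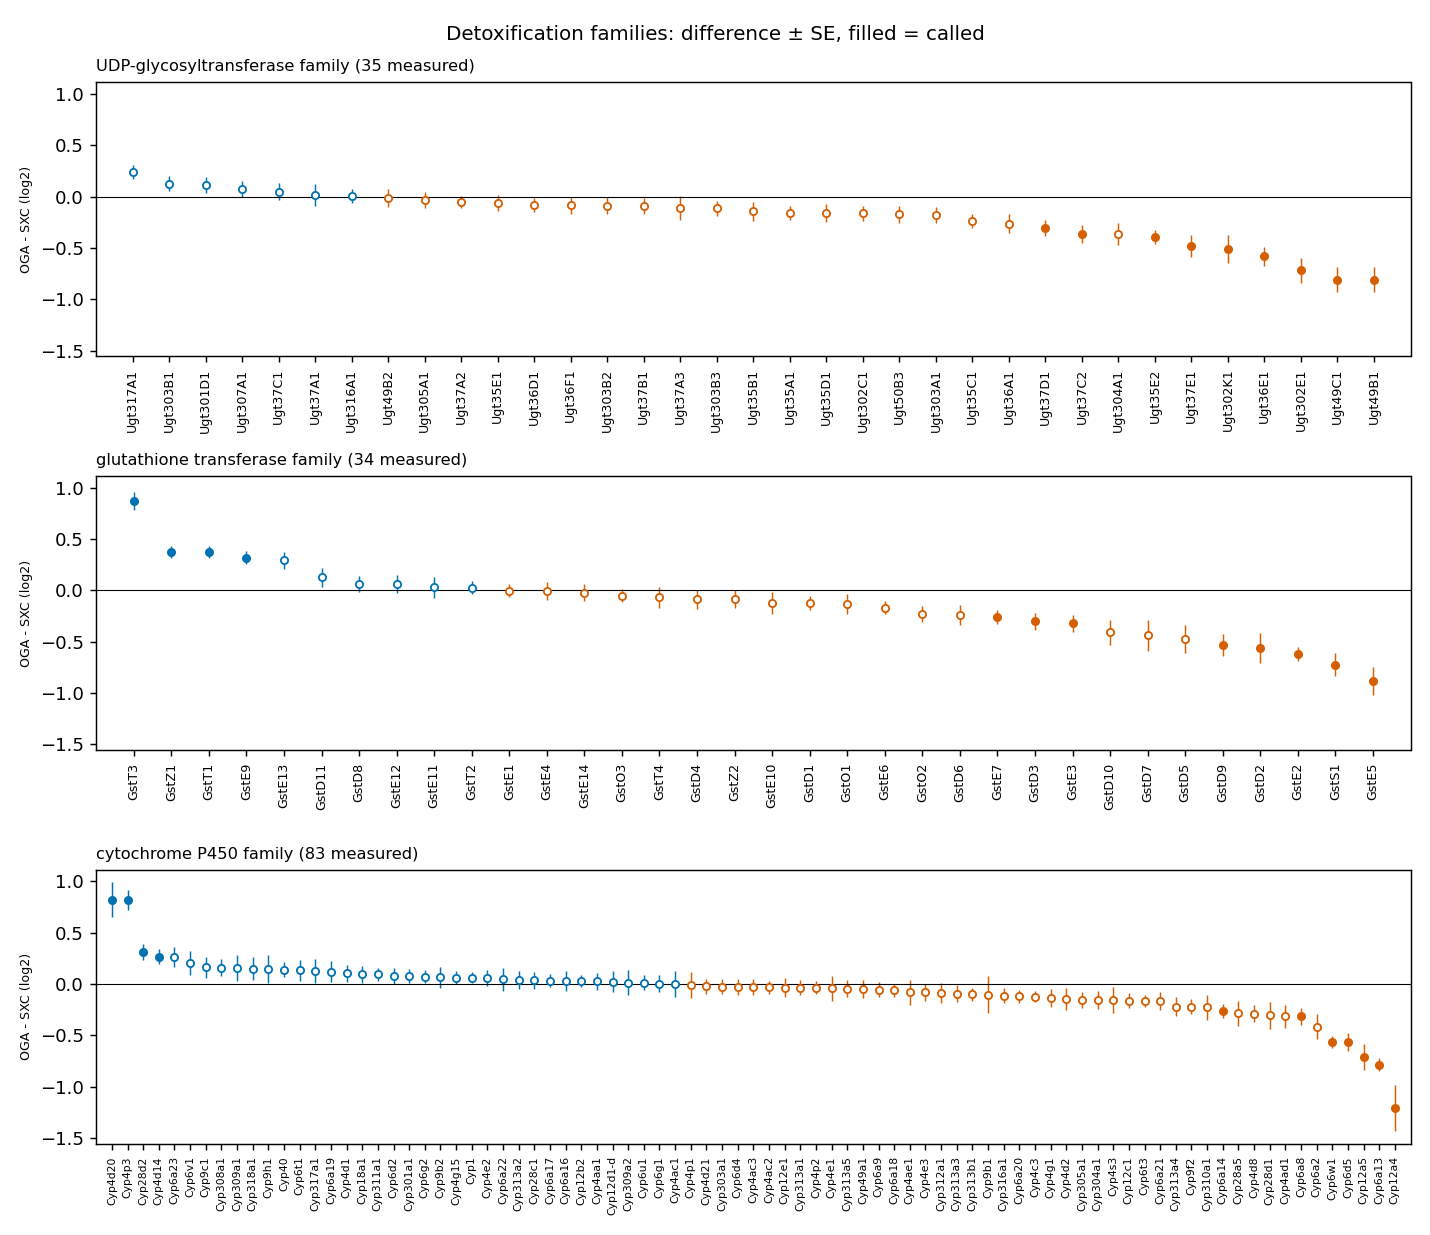
Log2 difference, OGA mutant minus SXC mutant, with its SE for each measured gene of the UDP-glycosyltransferase, glutathione transferase and cytochrome P450 lists. The last list also holds Cyp1 and Cyp40, which encode cyclophilins. Filled points are called, and those below 0 outnumber those above it in each list, 9 to 0, 8 to 4 and 7 to 4.

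In the hexosamine pathway, 2 of 6 measured genes rose, against 6.72% of all genes called higher, and 0 fell. The rises were 3 without OGA mutant replicate 2, and 1 with any other array left out. Gnpnat, which acetylates glucosamine phosphate, had levels of 10.86, 10.91 and 10.73 in the OGA mutant, against 10.48, 10.47 and 10.46 in the SXC mutant, a difference of 0.36 with SE 0.07 (adjusted p = 0.0111). mmy, which makes UDP-GlcNAc itself, rose by 0.26 with SE 0.07 (adjusted p = 0.0498), and its call ended with any array other than OGA mutant replicate 2 left out (adjusted p = 0.0928 to 0.153). Gfat2, of the first step of the pathway, had a difference of −0.05 with SE 0.07 (adjusted p = 0.734) and Gfat1 of −0.18 with SE 0.09 (adjusted p = 0.271). In the glycolysis list 2 of 13 measured genes rose (against 6.72% of all genes) and 2 fell (against 3.46%). In sugar metabolism, Gpdh1, which makes glycerol phosphate, fell by 0.72 on the log2 scale (SE 0.11, adjusted p = 0.00515), and its 3 further probe sets had the same sign, 1 of them called. Pepck1, of gluconeogenesis, rose by 0.65 with SE 0.13 (adjusted p = 0.0123), a call that ended without SXC mutant replicate 1 (adjusted p = 0.0554).

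Among genes of the germline and egg, the piRNA pathway, which silences transposons, had 5 rises (20%, against 6.72% of all genes) and 3 falls (12%, against 3.46%) among 25 measured genes. squ (2L) had levels of 11.38, 11.33 and 11.35 in the OGA mutant, against 10.25, 10.66 and 10.76 in the SXC mutant, a difference of 0.79 with SE 0.11 (adjusted p = 0.00306), and fs(1)Yb, which acts in piRNA production of somatic ovarian cells, rose by 0.38 with SE 0.07 (adjusted p = 0.00944). The 5 rises and 3 falls depended on single arrays: they were 2 and 2, 4 and 1, and 2 and 0 with OGA mutant replicates 1, 2 and 3 left out in turn, and 2 and 0, 2 and 2, and 6 and 0 with SXC mutant replicates 1, 2 and 3 left out in turn. png, the pan gu kinase of egg activation, had levels of 8.54, 8.47 and 8.65 in the OGA mutant, against 7.77, 7.89 and 7.99 in the SXC mutant, a difference of 0.67 with SE 0.08 (adjusted p = 0.00137). Of 9 measured egg activation genes it alone rose, against 6.72% of all genes called higher, and 0 fell. Eggshell genes read 4.56 to 7.56 and genes of yolk proteins and their uptake 4.45 to 7.79 over all 9 arrays. Germline markers were mixed: 4 of 10 measured had a mean above the median level over all probe sets, and the list ran up to 12.35, whereas vas and bam averaged 4.86 and 4.98 in the OGA mutant and 4.73 and 5.01 in the SXC mutant. Of the 10 germline markers 2 fell, against 3.46% of all genes called lower, and 0 rose. The falls were 2, 0 and 1 with OGA mutant replicates 1, 2 and 3 left out in turn, and 1, 1 and 2 for the SXC mutant. One was BicC, which was dim, at means of 4.64 in the OGA mutant and 5.05 in the SXC mutant. zpg, which encodes a gap junction protein of germ cells, averaged 10.06 in the OGA mutant and 10.45 in the SXC mutant, a difference of −0.39 with SE 0.08 (adjusted p = 0.0154), and its call ended without OGA mutant replicate 2 (adjusted p = 0.0543). In the list of oocyte polarity genes, 10 of 18 measured members were above that median. Of the 18, 2 fell, against 3.46% of all genes, and 0 rose. The falls were 0 without replicate 2 or 3 of the OGA mutant, or replicate 1 or 2 of the SXC mutant. Among the 2 was grk, the ligand that patterns the egg. It averaged 11.26 in the OGA mutant and 11.55 in the SXC mutant, a difference of −0.29 with SE 0.07 (adjusted p = 0.0325), and the call ended with replicate 2 or 3 of the OGA mutant, or replicate 1 or 2 of the SXC mutant, left out (adjusted p = 0.07 to 0.108). The series title concerns oogenesis, while the labels name no tissue.

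The haemocyte and basement membrane list was bright, with a median level of 12.80. SPARC, a basement membrane protein gene, averaged 15.05 and 15.07, and the haemocyte antigen gene He 14.13 and 14.18, in the OGA and SXC mutants. Of its 19 measured genes 4 rose (21.1%, against 6.72% of all genes) and 2 fell (10.5%, against 3.46%). These counts were 2 and 2 without OGA mutant replicate 1, and 1 and 1 without SXC mutant replicate 1 or its replicate 2. PPO2, a prophenoloxidase of crystal cells, had levels of 11.87, 11.50 and 12.03 in the OGA mutant, against 10.43, 10.80 and 11.18 in the SXC mutant, a difference of 0.99 with SE 0.19 (adjusted p = 0.0117). eater, a phagocytic receptor, differed by −0.51 with SE 0.11 (adjusted p = 0.0203), and the call ended without SXC mutant replicate 1 (adjusted p = 0.083) or replicate 2 (0.0566). The mean level of the list was 11.68 to 11.87 on the OGA mutant arrays and 11.56 to 11.76 on the SXC mutant arrays, which overlapped. Its part in the other differences was not tested.

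Genes of humoral immunity had 4 falls among 30 measured genes (13.3%, against 3.46% of all genes) and 2 rises, a share of 6.67% that is about the 6.72% of all genes called higher. The rises were 1 with any array other than OGA mutant replicate 3 left out, and the falls 3 to 6. CecB and DptB, which encode antimicrobial peptides, fell by 0.87 (SE 0.15, adjusted p = 0.00741) and 0.79 (SE 0.12, adjusted p = 0.00414) on the log2 scale, cact, the inhibitor of Toll signalling, by 0.44 (SE 0.08, adjusted p = 0.011), and AttD rose by 0.42 with SE 0.08 (adjusted p = 0.00891). A further probe set of cact had a difference of −0.26 with SE 0.08 and was not called (adjusted p = 0.0735). In the circadian clock list 2 of 11 measured genes fell, against 3.46% of all genes called lower, and 0 rose. These were vri and Pdp1, which encode paired regulators of the Clock gene. They fell by 0.83 (SE 0.14, adjusted p = 0.00654) and 0.54 (SE 0.10, adjusted p = 0.00801). Of 16 Polycomb group genes, a list without sxc, only Asx, of a histone deubiquitinase, was called (−0.51 with SE 0.09, adjusted p = 0.00782). Of all genes 3.46% were called lower. Of the 4 Hox genes measured, none above a level of 5.47, limma called 0, with 2 at an unadjusted p under 0.05. Of 12 measured heterochromatin protein genes 3 rose, against 6.72% of all genes called higher, and 0 fell. With SXC mutant replicate 1 and OGA mutant replicate 3 both left out, 0 were called. HP1c, of the HP1 family, rose by 0.36 with SE 0.06 (adjusted p = 0.00748). All 10 measured heat shock and folding genes had negative differences, but limma called 0, with 3 at an unadjusted p under 0.05. Among them Hsp27 had the smallest p, with −0.38 and SE 0.11 (adjusted p = 0.0666). Lists for digestive enzymes, yolk, accessory gland, muscle, odorant-binding proteins, the unfolded protein response and fat body also had 0 calls by limma, with 0 to 5 genes each at an unadjusted p under 0.05. Several of these lists were mostly dim. Above the median level were 7 of 35 digestive, 1 of 16 accessory gland, 4 of 16 muscle and 7 of 47 odorant-binding genes. Dim genes were seldom called, so 0 calls cannot show that these lists were unchanged. In the unfolded protein response list 19 of 20 were above that level.

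**Figure D5:**
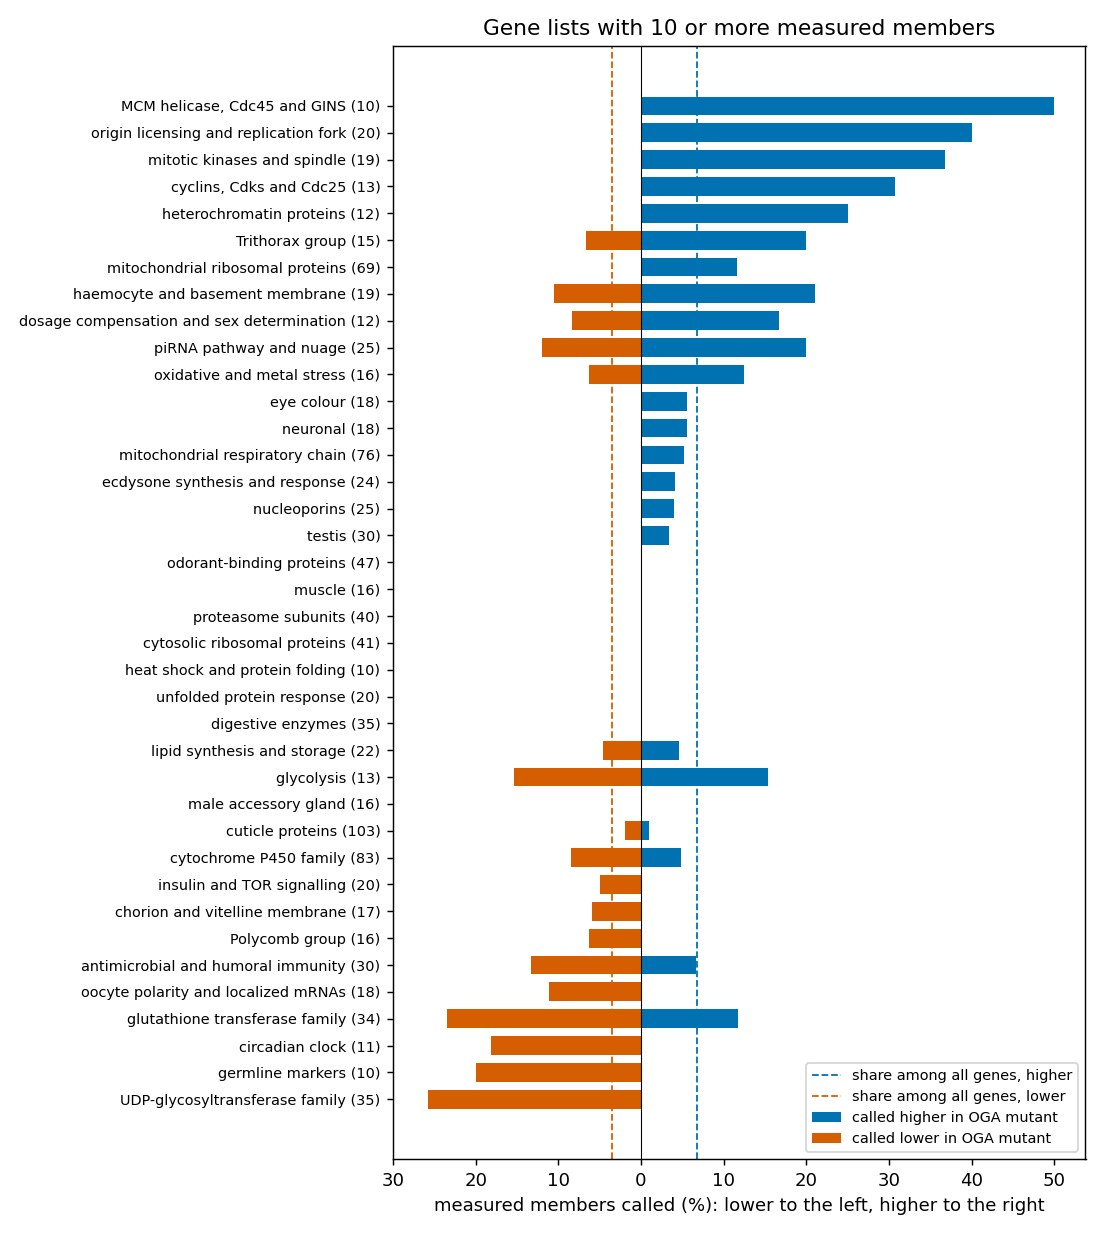
Share of the measured genes of each list with 10 or more members that were called higher (blue, right) or lower (orange, left) in the OGA mutant; dashed lines mark the shares among all genes, 6.72% and 3.46%. Replication and division lists lie at the top and UDP-glycosyltransferases at the bottom.

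Called genes lay on every chromosome arm. The X chromosome had 201 genes higher and 62 lower of 1873, 14.0% called, against 8.96% to 10.5% on 2L, 2R, 3L and 3R. On chromosome 4, 7 of 65 genes were lower (10.8%, against 3.46% of all genes) and 0 higher (against 6.72%). Of the 20 measured genes nearest Oga and the 20 nearest sxc, 2 each were called, about the 10.2% of all genes. Near Oga, ebony (e), of cuticle pigment synthesis, was higher (0.80 with SE 0.06, adjusted p = 0.000254) and CG3301 lower (−0.51, adjusted p = 0.00759). Near sxc, CG3107 (−0.45, adjusted p = 0.0195) and CG10417 (−0.34, adjusted p = 0.0226) were lower. These 4 neighbours were chosen after their values were seen.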

How the data were processed

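Total RNA of the 9 samples was labelled with biotin and hybridised to 1 array each, per the labels. The deposited log2 values, 1 per probe set and array, were used as given; the scale was read from the values. MAS5, RMA and Partek are named in the submitters' processing notes with no role; the sources used here do not say which of them made the values.

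Groups were fitted with limma 3.58.1 in R 4.3.3 (lmFit and eBayes) over all 9 arrays, with 6 residual and 5.13 prior degrees of freedom, and the OGA mutant was set against the SXC mutant. Benjamini-Hochberg adjustment ran over 18769 probe sets after 183 controls were left out; called means an adjusted p under 0.05. Probe sets were paired with 1 gene (13647), several (402) or none listed (4720), and symbols were updated through Entrez identifiers in RefSeq (Release 6 plus ISO1 MT), which lacked 103. A gene is represented by its probe set with the highest mean. Unmapped columns numbered 0. The code was tested on simulated data.

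The 48 gene lists (1098 measured members) and the genes named were chosen with earlier results of these data known. The rule named Oga, sxc, the 12 largest rises and falls whose arrays do not overlap and whose brighter mean is above 6.00, up to 4 called members of a list by smallest p, and values for lists with no call. Alternatives were normalization, filters, priors, weights, a replicate block, a gene length trend and leaving out arrays. The number of arrays limits the precision.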

Additional observations from a re-analysis of the deposited data

How the results depend on the processing

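With only the 6 mutant arrays fitted, 858 probe sets were called (558 higher and 300 lower in the OGA mutant), and with no moderation of the variances 362 (268 and 94); the cause was not tested, but the first has fewer arrays. Leaving out 1 array gave 586 to 1366 calls, 379 to 879 higher and 207 to 487 lower. An alternative chosen after seeing the data, without SXC mutant replicate 1 and OGA mutant replicate 3, gave 331 (198 and 133). Same-numbered arrays of the mutants deviated from their group means with correlations of −0.12, −0.08 and 0.06, and differently numbered arrays with −0.145 to 0.173. With 3 arrays per group, these values cannot tell whether the numbers pair the samples. With a replicate block 1095 were called (697 and 398). The differences of Oga and sxc kept their direction and their call in each alternative run. Of 114 called genes covered by the naming rule, 68 were called in all 6 fits that left out 1 array, 48 without both of those arrays, 99 with the replicate block and 33 with no moderation. Removing a gene length trend gave 1378 calls (796 and 582), and array weights 1911 (1297 and 614).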
